A study of Arabidopsis thaliana with 14 samples.

Results

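A total of 30 circRNAs in *Arabidopsis thaliana* had the chloroplast gene rpl33 (ATCG00640) as their listed parent gene, out of 5861 circRNAs in all. They were taken by that listed parent gene alone. The gene itself was chosen by its number of circRNAs and of reads, so both are descriptions and were not tested. CircRNAs are closed rings of RNA that show up in sequencing as back-spliced reads, in which the end of a stretch is joined to its own start. Total RNA of wild-type Col-0 was freed of rRNA and of linear RNA and sequenced in 14 samples with 1 library each. Of the 13 separate samples, 4 came from plants at growth stages 1.14, 3.90, 6.50 and 8.00, 5 from roots, stems, leaves, flowers and siliques, and 4 from plants given no stress or drought (mannitol), salt (NaCl) or heat at stage 3.90. The mixed sample pooled RNA of whole plants at 7 growth stages across the lifespan. All 30 rpl33 circRNAs were found in the mixed sample, and the value listed for them over all samples equalled their count there. That value may leave out reads of the separate samples, so it does not show that the rpl33 circRNAs were absent from these. They are therefore described from that 1 library, with no comparison between stages, organs or stresses and no replicate spread. Only back-spliced reads were listed, so the tissue was checked no further than that the photosynthesis genes psbA and rbcL had circRNAs there.

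The gene rpl33 encodes L33, a small protein of the large subunit of the plastid ribosome, the machine that makes the proteins encoded by chloroplast DNA. In tobacco, L33 is dispensable in ordinary growth and is needed for recovery from cold. Chloroplast introns are removed without the nuclear spliceosome, and rpl33 has no intron. The find_circ program, which called these circRNAs, keeps junctions with the bases AG just before the start and GT just after the end, and it reads the strand from these bases. The gene lies on the plus strand of the chloroplast chromosome (Pt) of TAIR10 at positions 67488 to 67688, 201 bp of uninterrupted coding sequence. Positions are given on that sequence, counted from 1.

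The coding sequence is shown because most junctions fall inside it or just beyond it. Capitals mark each AG that directly precedes a start used by a plus-strand rpl33 circRNA and each GT that directly follows a used end. The letters are those of the RefSeq reference TAIR10.1, from the start codon atg to the stop codon tag.
rpl33 coding sequence, Pt, plus strand: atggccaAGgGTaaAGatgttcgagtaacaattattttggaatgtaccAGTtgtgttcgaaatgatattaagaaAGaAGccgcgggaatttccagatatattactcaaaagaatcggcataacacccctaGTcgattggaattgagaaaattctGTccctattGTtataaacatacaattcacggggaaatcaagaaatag

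Of the AG and GT pairs of bases in the gene, 5 of 13 AG preceded a used start and 5 of 10 GT followed a used end. The junctions of the circRNAs with the most reads are shown next as they read in the RNA, 5′ to 3′. The last 15 bases of the circRNA are in lower case and its first 15 bases are in capitals, so that the back-splice lies where the case changes.
Ath_circ_FC4764: acaggaataatgctaTTGTGTTCGAAATGA
Ath_circ_FC4766: aatagatcaaattgaAAGCCGCGGGAATTT
Ath_circ_FC4773: acaggaataatgctaCCGCGGGAATTTCCA
Ath_circ_FC4779: tccaatcgactagggATACTAGCATTATTC
Ath_circ_FC4781: tcaaattgagtgcttCCGCGGGAATTTCCA
Ath_circ_FC4764 and Ath_circ_FC4773 have the same left side and differ in the right side, while Ath_circ_FC4773 and Ath_circ_FC4781 have the same right side and differ in the left side. These are separate junctions built from a small set of shared starts and ends. In a search of 60 bases across each junction, 0 of the 30 had an unbroken copy in the nuclear or chloroplast DNA with at most 3 differing bases. The stretch of the short rpl33 circRNAs also had 0 blastn matches in the nuclear chromosomes at an E value of up to 1e-05.

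The rpl33 circRNAs had 464 back-spliced reads in the mixed sample, with an exact Poisson 95% interval of 423 to 508. The median was 7 reads and the range 2 to 72, against a median of 4 reads over all 1217 circRNAs of that sample and 4 over the 165 chloroplast circRNAs of other parent genes or of none. The reads were unevenly divided. The 5 circRNAs with the most reads held 258 reads (55.6%), while the 19 with fewer than 10 reads held 90 together. In all, 11 had at least 10 reads, those 5 included, and 4 of the 19 stood at 2 reads, the lowest number the authors kept. Intervals of this kind cover counting error only, because reads amplified by PCR are not independent molecules. The number of plastids that gave the RNA and the RNA from each plastid cannot be told apart in such a pool.

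The leading circRNA was Ath_circ_FC4764 (67538 to 67742, 205 bp) with 72 reads, and its interval ran from 56.3 to 90.7. Ath_circ_FC4766 (67564 to 67698, 135 bp) had 66 reads (51.0 to 84.0), which cannot be ranked below it at this depth. Ath_circ_FC4773 (67567 to 67742, 176 bp) had 49 reads (36.3 to 64.8). All 3 start within the coding sequence and end beyond the stop codon, so they lack the start codon and carry the 3′ part of the message. Ath_circ_FC4779 (67613 to 67746, 134 bp) had 36 reads (25.2 to 49.8) and was on the opposite strand. Ath_circ_FC4781 (67567 to 67704, 138 bp) followed with 35 reads (24.4 to 48.7). The counts of these last 2 differ by less than their counting error.

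**Figure D1:**
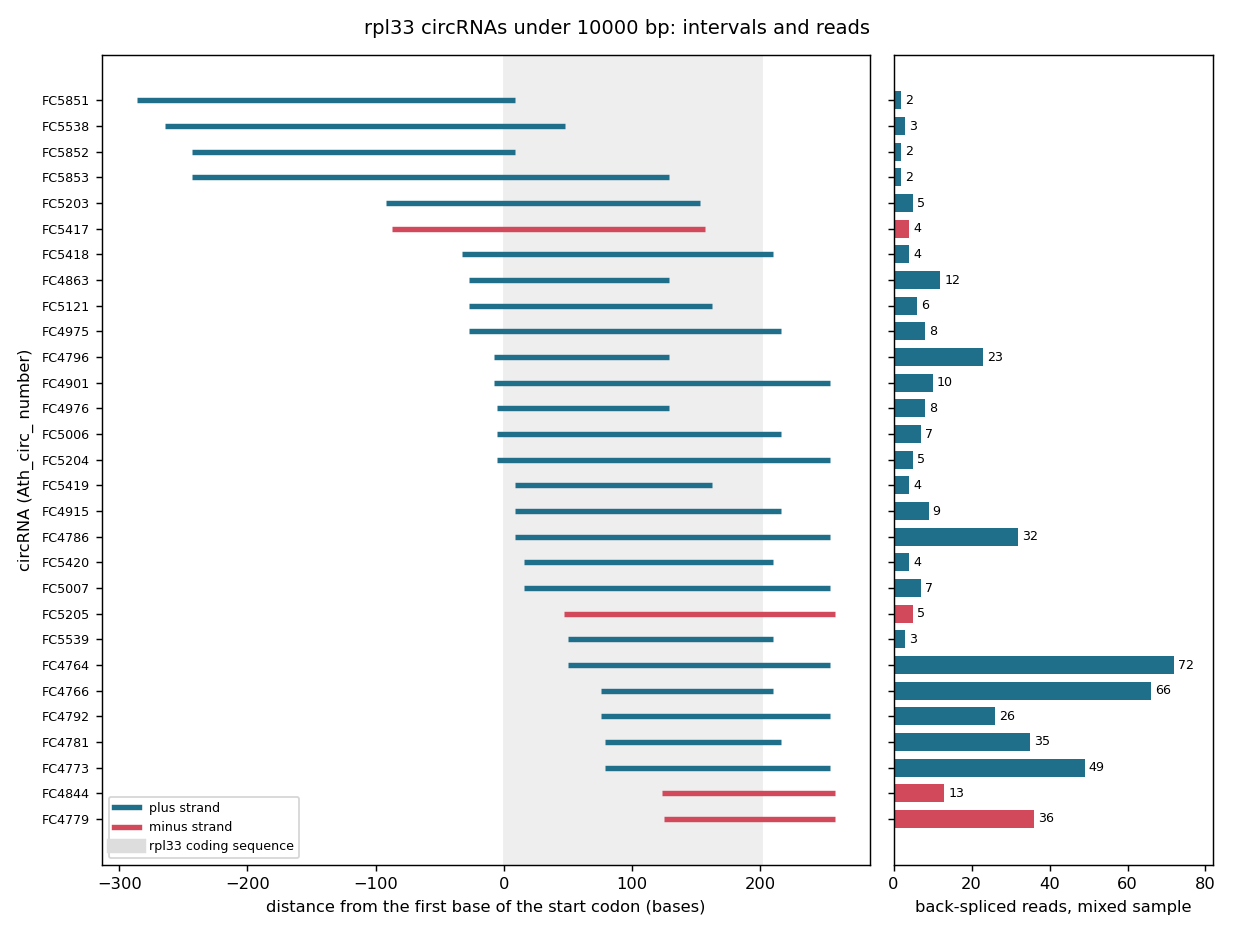
The 29 rpl33 circRNAs under 10000 bp. Each line spans a circRNA by distance in bases from the first base of the start codon, the shaded area is the coding sequence, colour gives the strand, and each bar gives its back-spliced reads in the mixed sample, from 2 to 72. The bars above 40 reads all belong to plus-strand circRNAs that start within the coding sequence and end beyond it.

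The span, the distance along the DNA from the first to the last base, had a median of 210 bp. It was 178 bp over all circRNAs of the mixed sample and 186 bp over the other chloroplast circRNAs. The 29 rpl33 circRNAs under 10000 bp lay between 134 and 373 bp, with a median of 208 bp. The remaining circRNA spanned 65949 bp. The shortest 6, from 134 to 138 bp, held 181 reads (39.0%). No rpl33 circRNA was below 134 bp, although 181 circRNAs of the mixed sample were, 12 of them in the chloroplast. The shortest circRNA of that sample had 95 bp.

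On the plus strand, which is the strand of the gene, lay 26 of the 30 circRNAs (86.7%), with 406 reads (87.5%). Of the 165 other chloroplast circRNAs, 81 were on the plus strand. That count is by DNA strand only and is not a share on the strand of the gene, since their parent genes lie on either strand. The 4 circRNAs on the minus strand had 58 reads (12.5%). Ath_circ_FC4779 and Ath_circ_FC4844 (67611 to 67746, 136 bp, 13 reads, interval 6.92 to 22.2) had the same first base of the RNA and ends 2 bp apart. Ath_circ_FC5205 (67535 to 67746, 212 bp) shared that first base too and had 5 reads. The remaining minus-strand circRNA, Ath_circ_FC5417 (67401 to 67645, 245 bp), had 4 reads. The junction of Ath_circ_FC4844 is given to show how little it differs from that of Ath_circ_FC4779.
Ath_circ_FC4844: caatcgactaggggtATACTAGCATTATTC
The 3 that begin at 67746 had the bases AG before the start and GT after the end on the minus strand, as listed, which are other bases than those flanking the plus-strand circRNAs. Position 67746 lies 4 bp beyond 67742, the end most used on the plus strand, and positions 67613 and 67611 lie 4 and 6 bp before 67617, another plus-strand end.

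Starts and ends recurred. The 30 circRNAs used 17 different starts and 11 different ends, counted for each strand by position along the DNA. Of the starts, 9 were used by at least 2 circRNAs, and these took in 22 of the 30. Of the ends, 7 were used by at least 2, which took in 26 of the 30. Each distinct end position, starts and ends together, was thus used by a mean of 2.14 circRNAs, every circRNA being counted at its start and at its end.

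The most used end was 67742, 54 bp beyond the stop codon, with 7 circRNAs and 201 reads (43.3%). The 30 bases around it are shown with the GT that follows the end in capitals.
end 67742: acaggaataatgctaGTatctatatattat
Its circRNAs began at 7 positions from 67480 to 67567. Besides Ath_circ_FC4764 and Ath_circ_FC4773 they were Ath_circ_FC4786 (start 67497, 246 bp) with 32 reads, Ath_circ_FC4792 (start 67564, 179 bp) with 26, and Ath_circ_FC4901 (start 67480, 263 bp) with 10. Ath_circ_FC5007 (start 67504, 239 bp) had 7 reads, and Ath_circ_FC5204 (start 67483, 260 bp) had 5. With the same end, the reads thus ranged from 5 to 72 over the 7 starts. The intervals of Ath_circ_FC4764 and Ath_circ_FC4786 (21.9 to 45.2) did not overlap, but they cover counting error only and the difference was not tested.

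The next ends were 67698, 10 bp beyond the stop codon, with 4 circRNAs and 77 reads (16.6%), and 67704, 6 bp further on, with 4 circRNAs and 59 reads (12.7%). Both are printed because they overlap in sequence and yet were joined to different starts.
end 67698: aatagatcaaattgaGTgcttgtatgtcaa
end 67704: tcaaattgagtgcttGTatgtcaactttta
They shared 0 starts with each other, and each shared 3 with the end at 67742. End 67698 also shared 0 starts with the ends at 67617 and at 67650, but several of those pairs would be shorter than any listed rpl33 circRNA. Of its 4 starts, only 67455 lies far enough from 67617 for a pair as long as the shortest listed one. Starts 67538 and 67564 lie too close to 67650 for such a pair. Apart from 1 junction each, with 66 and 35 reads, those of 67698 had 3 or 4 reads and those of 67704 had 7 to 9. The lack of shared starts was not tested. An example is a pair of starts 3 bp apart. Start 67564 was joined to 67698 with 66 reads and to 67742 with 26. Start 67567 was joined to 67704 with 35 reads and to 67742 with 49. Its junction with 67698 was not listed, and that pair would be shorter than any listed rpl33 circRNA. Ends inside the coding sequence were used less by reads. End 67617 had 4 circRNAs and 45 reads (9.70%), and end 67650 had 2 circRNAs and 10 reads.

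By number of circRNAs, the most used start was 67483, 5 bp before the start codon, with 4 circRNAs but only 22 reads. These were Ath_circ_FC4976 (end 67617, 135 bp, 8 reads), Ath_circ_FC5006 (end 67704, 222 bp, 7 reads), Ath_circ_FC5204 with 5 reads, and the long Ath_circ_FC5854 with 2. Starts 67461 (26 reads) and 67497 (45 reads) had 3 circRNAs each, so the lead of 67483 rests on Ath_circ_FC5854. By reads, the order was different. Start 67564 had 92 reads (19.8%), start 67567 had 84 (18.1%) and start 67538 had 75 (16.2%), each from 2 circRNAs. The bases around these 4 starts are given with the AG that precedes the start in capitals.
start 67483: ataaatccaaaggAGgtttcatggccaagg
start 67538: tttggaatgtaccAGttgtgttcgaaatga
start 67564: atgatattaagaaAGaagccgcgggaattt
start 67567: atattaagaaagaAGccgcgggaatttcca
The 3 starts with the most reads all lie within the coding sequence, and 67483 lies just before it.

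**Figure D2:**
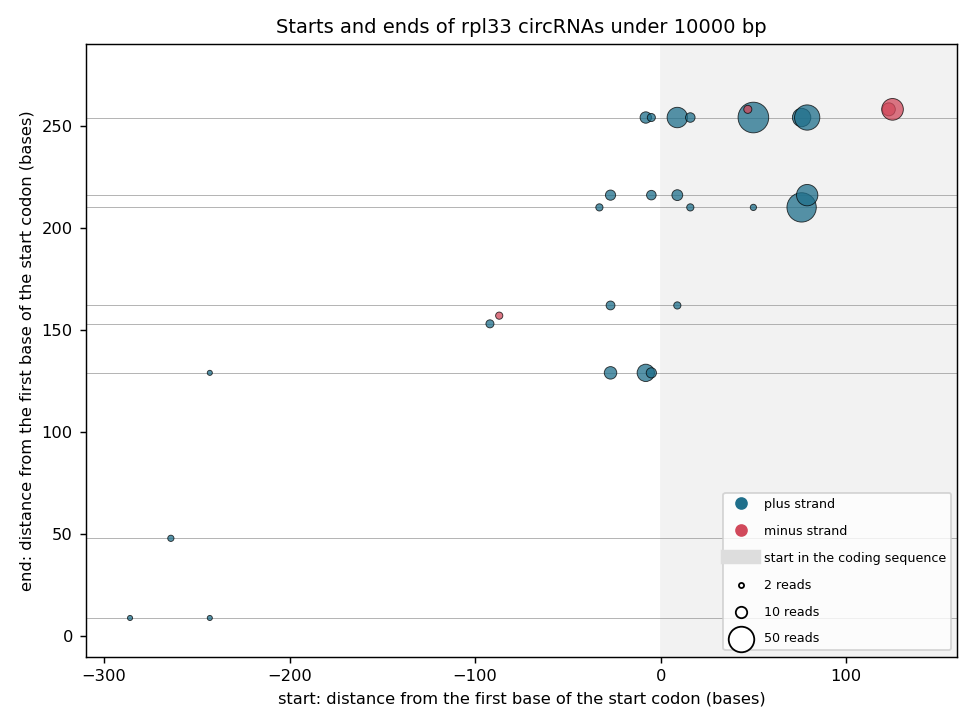
Start and end of each rpl33 circRNA under 10000 bp, both as distance in bases from the first base of the start codon. The area of a point is proportional to its back-spliced reads in the mixed sample, colour gives the strand, grey lines mark the plus-strand ends, and shading marks starts within the coding sequence. Points line up along shared ends, with 7 on the line of the most used end.

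A dense group of 20 plus-strand circRNAs with 390 reads (84.1%) had starts from 67455 to 67567 and ends from 67617 to 67742. Its limits were set from the members' own ends after these were seen, so it is a description. Its starts took 9 of the 11 AG in that stretch, 3 to 34 bp apart, and its ends took 5 of the 7 GT. A circRNA outside the group, Ath_circ_FC5203 (67396 to 67641, 246 bp, 5 reads), used a 6th GT. Of the 45 pairs that 9 starts and 5 ends can make, 9 were shorter than the shortest circRNA of the group (135 bp). Of the other 36, 20 were listed and 16 were not. The end at 67742 was joined to 7 of the 9 starts open to it, 67698 to 4 of 8, 67704 to 4 of 9, 67617 to 3 of 4 and 67650 to 2 of 6. With at least 2 reads needed for a listing, an unlisted pair was not detected at this depth, which does not show whether it is rare or absent.

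Of the other plus-strand circRNAs, 4 under 10000 bp began further upstream and had few reads. Ath_circ_FC5538 (67224 to 67536, 313 bp) had 3 reads. Ath_circ_FC5851 (67202 to 67497, 296 bp), Ath_circ_FC5852 (67245 to 67497, 253 bp) and Ath_circ_FC5853 (67245 to 67617, 373 bp) had 2 reads each. Of these 4, all but Ath_circ_FC5853 ended early in the coding sequence and hold mainly bases upstream of it. Over the whole window of the short circRNAs (67202 to 67746, 545 bp), 13 of 33 AG and 8 of 26 GT on the plus strand were used. On the minus strand, read in the direction of the RNA, 2 of 21 AG preceded a used start and 4 of 21 GT followed a used end. The window had 71.6% A and T, against 63.7% in the whole chloroplast DNA.

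Most reads on the strand of the gene came from circRNAs that lack the start codon. Among the 25 plus-strand circRNAs under 10000 bp, 11 lacked it, and these had 307 of 404 reads (76.0%). The 14 that had it held 97 reads. The stop codon lay within 15 of them with 337 reads. The whole coding sequence was held by 5 circRNAs with 34 reads, and 1 circRNA, Ath_circ_FC5419 (67497 to 67650, 154 bp, 4 reads), lay wholly within the gene. Summed over the circRNAs of both strands, the first coding base was spanned by 101 reads and the last by 391. The highest sum was 455 reads from 26 circRNAs at positions 67613 to 67617. These sums take each circRNA to hold all bases between its ends, which back-spliced reads do not show.

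**Figure D3:**
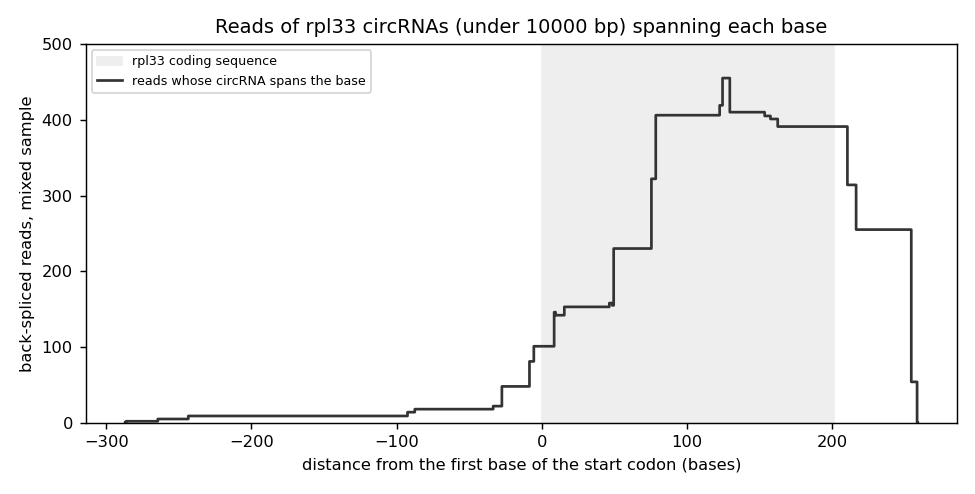
Back-spliced reads in the mixed sample whose rpl33 circRNA (under 10000 bp, both strands) spans each base, by distance in bases from the first base of the start codon. The shaded area is the coding sequence, and the line rises from 101 reads at its first base to a highest value of 455 and stands at 391 at its last base.

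All 30 circRNAs had AG before the start and GT after the end on their listed strand, as did all 909 chloroplast circRNAs of the full list, which is a condition of the calling program. A run of identical bases shared by both ends leaves the exact junction open by its length. It was 0 bp in 12 circRNAs, 1 bp in 9 and 2 bp in 8. The exception was Ath_circ_FC5854 with 9 bp.

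Ath_circ_FC5854 was also the exception by length. It ran from 67483 to 133431, 65949 bp or 42.7% of the chloroplast DNA of 154478 bp, and had 2 reads. Its junction is printed because it joins the most used start to a distant gene.
Ath_circ_FC5854: gcttgggagcttacgGTTTCATGGCCAAGG
The end lay in the gene of the large ribosomal RNA of the inverted repeat (131149 to 133958), which is on the minus strand, while the circRNA was listed on the plus strand. Its last 30 bases had 1 other exact copy, at 105218 to 105247, in the matching rRNA gene of the other repeat copy (104691 to 107500, plus strand). The end of this circRNA therefore cannot be assigned to a single place.

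The authors also listed predicted miRNA sites for the circRNAs of the mixed sample. MicroRNAs are short RNAs that pair with target transcripts, and a circRNA with a site could bind them. Of the 29 rpl33 circRNAs under 10000 bp, 0 had a listed miRNA, against 63 of 142 other chloroplast circRNAs under that length. The 29 lay between 134 and 373 bp and the others were held only to that limit, so lengths were not matched. The share was 44.6% (87 of 195) over all chloroplast circRNAs of the mixed sample and 70.3% (856 of 1217) over the whole of it. The long Ath_circ_FC5854 had 238 listed miRNAs with 503 sites, 7.63 sites per 1000 bases. Of these miRNAs, 104 had 1 site, and ath-miR5653 had the most, 9, followed by ath-miR5020a, ath-miR8167a, ath-miR8167b and ath-miR8167c with 7 each. The criteria behind this deposited column are not given in the sources used here, and the study describes a much smaller set of putative sites, which was not used here. The listed sites are predictions from sequence, over a span of which only the junction was observed. The 29 short circRNAs overlap one another, so that their common lack of a listed site counts for 1 stretch of DNA and not for 29 separate cases.

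Beside the other chloroplast genes, rpl33 held 15.4% of the 195 chloroplast circRNAs of the mixed sample. Of their 2118 reads its share was 21.9% (Wilson 95% interval 20.2 to 23.7, for counting error only). No interval is given for the share of circRNAs, because those of rpl33 overlap and share ends. The gene held 5.16% of the 8987 reads of all circRNAs in that sample. Among 47 chloroplast genes with a circRNA it ranked 2 by circRNAs and 3 by reads. psbA, which encodes the D1 protein of photosystem II, had 44 circRNAs there with 487 reads (23.0%). psbJ, which encodes a small subunit of the same photosystem, had 15 circRNAs with 570 reads (26.9%) and was named after its values were seen. rbcL, for the large subunit of RuBisCO, had 14 circRNAs with 69 reads, and psbC, for the CP43 antenna protein of photosystem II, had 6 with 23 reads. The reads of rpl33 and psbA were close, while their lengths were not, 201 and 1062 bp. In the mixed sample, rpl33 had 149 circRNAs per 1000 bases of gene, psbJ (123 bp) 122, psbA 41.4, rbcL 9.72 and psbC 4.22. The order was another one over the list of all samples, where psbA had 330 circRNAs (311 per 1000 bases), rbcL 32 (22.2) and psbC 26 (18.3), while rpl33 stayed at 30 and psbJ at 15. Since most rpl33 circRNAs reach beyond the gene, these densities are higher than those over the covered DNA.

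The genes also differed in strand and in the use of the bases AG and GT. For rpl33, 26 of 30 circRNAs were on the strand of the gene, against 11 of 15 for psbJ, 20 of 44 for psbA, 8 of 14 for rbcL and 4 of 6 for psbC. Of all AG and GT in the gene, those used were 43.5% in rpl33, 29.4% in psbJ, 18.2% in psbA, 6.21% in rbcL and 4.40% in psbC. In the mixed sample the circRNAs for each distinct end position were 2.14 for rpl33, 1.50 for psbJ, 1.40 for psbA, 1.12 for rbcL and 1 for psbC. These values are given side by side and were not tested, because rpl33 was chosen for its circRNAs. The share of used bases cannot fall as more circRNAs are found in a gene.

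The other plastid ribosomal protein genes had far fewer. Of 21 such genes encoded in the chloroplast, 12 for the small and 9 for the large subunit, 9 had a listed circRNA. Apart from rpl33, 8 genes had 17 circRNAs over all samples and 12 had none. Those with none include rps7, rps12, rpl2 and rpl23, which have more than 1 gene identifier each in the chloroplast. Whether back-spliced reads from repeated sequence could be placed was not examined, so these genes may have been missed. In the mixed sample these genes gave 13 circRNAs with 79 reads, of which rps14, for a protein of the small subunit, had 5 circRNAs with 35 reads. Among the neighbours, psaJ, for a small subunit of photosystem I, had 1 circRNA with 16 reads, and rps18, for a small subunit protein, had 2 with 7 reads. The genes rpl20 and rps12, for ribosomal proteins of the large and the small subunit, had 0. The number of circRNAs of rpl33 was above that of its neighbours and of the other genes for the same ribosome. The gene was chosen for that number, so this lead is a description and was not tested. Apart from rpl33, no plastid ribosomal protein gene had more than 6 circRNAs over all samples.

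**Figure D4:**
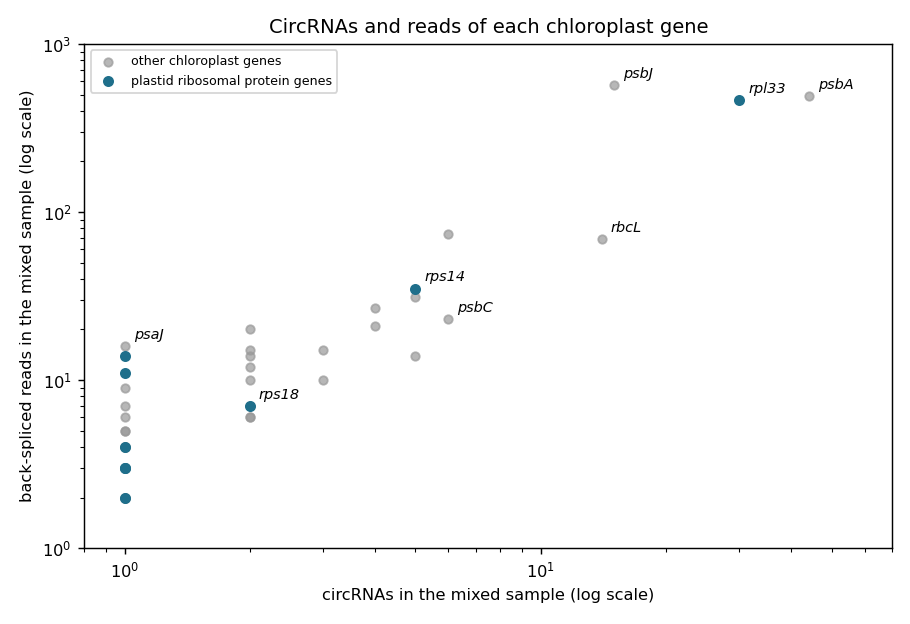
CircRNAs (horizontal, log scale) and back-spliced reads (vertical, log scale) in the mixed sample for each of the 47 chloroplast genes with a circRNA there. Points are genes, some of which coincide, with plastid ribosomal protein genes in colour. rpl33 (30 circRNAs, 464 reads), psbJ and psbA lie above all other genes by reads.

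Across the list of all samples, 15 genes had at least 10 circRNAs. In circRNAs for each distinct end position, rpl33 (2.14) was below psbA (3.44) and the non-coding RNA gene AT1G15405 (2.75). The nearest 3 genes by this measure were NIA2 (AT1G37130), which encodes a nitrate reductase, with 1.73 over 13 circRNAs, GRP7 (AT2G21660), which encodes a glycine-rich RNA-binding protein, with 1.64 over 18, and AT2G31141 with 1.60 over 12. In the mixed sample NIA2 had 3 circRNAs, GRP7 had 17 and AT2G31141 had 9. The likeness is in this single measure, over lists that hold different shares of the mixed sample.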

How the data were processed

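RNA from 14 samples, 1 library each, was depleted of rRNA and of linear RNA with Ribonuclease R and sequenced by the authors. Base calls came from CASAVA 1.8 per the submitters' processing notes. The authors mapped the reads to TAIR10 with TopHat2, called junctions with find_circ and kept those with at least 2 back-spliced reads. The deposited list of the mixed sample holds counts of back-spliced reads without normalization, beside a column scaled to depth, which was not used. The deposited list of all samples holds 1 score for each circRNA, which its header calls a mean of junction reads and which equalled the count for all 1217 circRNAs of the mixed sample. The depth of the mixed sample was taken as its 8987 back-spliced reads. Values of the separate samples were not analysed here.

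The circRNAs and lists were chosen with earlier results of these data known. Those named are the 5 with the most reads, the shortest and the longest, all at the most used start and end, up to 3 on the opposite strand, up to 3 with ends outside the gene, and any with a listed miRNA. Others are named to complete the account. Genes most like rpl33 were sought among those with at least 10 circRNAs. Starts were deposited counting from 0, as the lengths of all 5861 circRNAs showed, and 1 was added. Sequences come from RefSeq TAIR10.1, whose chloroplast sequence is that of TAIR10. Junction copies were sought with 30 bases from each side and at most 3 differing bases, and the code was checked on simulated sequences. No test was run. Intervals are exact Poisson (counts) and Wilson (share of reads) at 95%. Alternatives changed the assignment to the gene, the minimum reads (3 or 5), the tolerance of ends (2 or 5 bp), the weighting by reads and the length limit (10000 bp). Calculations used Python 3.11.15, numpy 2.4.6, pandas 2.3.3, scipy 1.17.1 and blastn 2.17.0, and figures matplotlib 3.10.9.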

Additional observations from a re-analysis of the deposited data

How the results depend on the processing

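The 8 summary values were recomputed under 28 alternatives, and 22 stayed close to the value reported, within 1.5 times for a count. The assignment to the gene mattered most. With every interval that overlaps rpl33 by at least 1 base there were 83 circRNAs with a median span of 42442 bp, and with those wholly inside the gene there was 1 circRNA with 4 reads. With at least 5 reads, 20 of the 30 circRNAs were left, which counted as close by that rule, and the share of chloroplast reads was 23.9%. Weighted by reads, the most used start moved to 67564 with 92 reads, while the most used end stayed at 67742 with 201 reads. With intervals whose ends lie within 5 bp counted once, 26 circRNAs were left. A limit of 10000 bp on the median span was chosen after seeing the data and gave 208 bp. No paired analysis was possible because each condition had 1 library and no result came from a test. A single library and 2 to 9 reads for 19 of the 30 circRNAs limit the order among them, and pairs of ends under 2 reads are not listed.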

Other observations

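Beyond the 30 circRNAs, 53 others overlapped rpl33 without having it as their parent gene. Their spans ran from 10766 to 98324 bp, 39 were listed as intergenic, and 50 lay across the whole gene. Of these 53, 14 were in the mixed sample, and their listed values ranged from 2 to 34. Another 4 of them had an end within the stretch of the short rpl33 circRNAs and were not in the mixed sample. Ath_circ_FC4408 (712 to 67698, plus strand, listed value 2) shared the end at 67698 with 4 rpl33 circRNAs. Ath_circ_FC4114 (370 to 67614, listed value 5) and Ath_circ_FC4365 (605 to 67614, listed value 2), both on the minus strand, shared an end with each other, and Ath_circ_FC4337 (586 to 67541, plus strand) had a listed value of 8.

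Upstream of the gene, 3 circRNAs of the mixed sample ended at 67482, the base just before 67483, the start used by the most rpl33 circRNAs. Ath_circ_FC4843 (67245 to 67482, 238 bp, 13 reads) also shared its start with Ath_circ_FC5852 and Ath_circ_FC5853. Ath_circ_FC0107 (67296 to 67482, 187 bp) had 12 reads, and Ath_circ_FC0106 of psaJ (66921 to 67482, 562 bp) had 16. The end at 67482 and the start at 67483 use bases on either side of the same point, the first a GT that follows and the second an AG that precedes.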
